A study of Homo sapiens with 18 samples.

Results

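The 33 genes described here encode the proteins that fold, modify, degrade and export the cargo of the endoplasmic reticulum (ER), together with the sensors of the unfolded protein response. They were taken by symbol from the count table, 33 of the 28278 symbols it holds. The rule applies no threshold on expression, but the list was drawn up with earlier results of these data known. All 33 passed the low-count filter that left 15353 genes for testing, with between 140 (FKBP14) and 30769 (P4HB) reads per gene and library. The RNA came from LX-2 cells, a human stellate cell line long established in culture, so every library is from 1 cell line and not from separate donors. Subcultures were kept for 1 h without serum and then received either 1 U/mL of thrombin, a protease of blood clotting, or more of the same medium as the control. Poly(A) RNA was sequenced in bulk 4, 24 or 48 h later. The 2 treatments and 3 times make 6 groups with 3 libraries in each, numbered 12, 13 and 14 in their titles, and values are listed in that order throughout.

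Proteins bound for secretion enter the ER through the SEC61 channel, lose their signal peptide and fold with the help of the chaperone HSPA5 (BiP), its cofactors, the lectin chaperones and the disulfide isomerases. Molecules that fail to fold are returned to the cytosol for degradation, and folded ones leave in COPII vesicles. When unfolded protein accumulates, the sensors ERN1 (IRE1), EIF2AK3 (PERK) and ATF6 signal to the nucleus and chaperone genes are induced, HSPA5 among them. Stellate cells are the main source of collagen in the injured liver, and collagen is folded and exported by this machinery. The comparisons address how thrombin changes the transcripts of this machinery over time.

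Libraries held 14431044 to 23270601 counts, of which the 33 genes took 0.587% to 0.627%. The labels do not say whether the 3 libraries of a group came from separate cultures, so p-values measure no more than the spread among these libraries, and that spread may be technical. In bulk RNA, fewer cells of a type and less RNA per cell cannot be told apart. Between the groups labelled thrombin 4 h and control 24 h only 11 of 15353 genes were called (0.0716%), none of them among the 33, and every direction at 4 h and 24 h rests on those labels. Without these 2 groups only 48 h can be compared, and there edgeR again called 0 of the 33 genes and 0 genes in all. Listed markers of stellate cells and fibroblasts summed to 6416 to 8132 CPM (read counts relative to the TMM-scaled library size) per library, led by VIM. Markers of hepatocytes summed to 3.53 to 6.86 CPM with TTR at 0 in all libraries, and those of endothelial cells to 16.3 to 30.9 CPM. The macrophage list reached 69.95 to 104 CPM, most of it CD68, and the cholangiocyte list 134 to 278 CPM, most of it SOX9. Of the tested stellate cell and fibroblast markers, 2 of 10 were called between thrombin and control at 4 h and 6 of 10 at 24 h, against 11.8% and 17.6% of all genes. At 24 h 3 of 6 endothelial and 1 of 3 tested cholangiocyte genes were called, and at 4 h none of either. Neither the hepatocyte list, with only 1 of 7 genes tested, nor the macrophage list, with 5 of 6 tested, had a gene called at these times. Their part in the results was not tested.

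Few of the 33 genes were called between thrombin and control. A gene is called here when its adjusted p is under 0.05 in edgeR's quasi-likelihood test, adjusted over all 15353 genes. At 4 h HSPA5 and MANF were lower in the thrombin libraries and none was higher, so 2 of 33 were called, against 11.8% of all genes tested. At 24 h HSPA5 was higher and none was lower, so 1 of 33 was called, against 17.6% of all genes. At 48 h edgeR called 0 of 33 and 0% of all genes. DESeq2 called 0 of the 33 and 14 genes at that time, and at an unadjusted p under 0.05 edgeR had 0 of the 33 and 1110 genes.

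The fold changes of the 33 were small at each time. Their median absolute log2 fold change was 0.08 at 4 h, 0.12 at 24 h and 0.07 at 48 h, beside 0.17, 0.19 and 0.10 over all genes tested. The signed median was -0.05 at 4 h, with 22 of 33 below 0, and 0.09 at 24 h, with 22 of 33 above 0. With total counts in place of TMM scaling, which moves all genes at 24 h by -0.11, the 24 h median was -0.02 and 14 of 33 were above 0. The 95% interval of the fold change lay within 1.5-fold of no change in either direction for 32 of the 33 at 4 h, 33 at 24 h and 33 at 48 h. Over all genes that was so for 66.4%, 62.8% and 74.8%. All genes tested include genes less abundant than any of the 33, and neither the medians nor these shares were matched for abundance.

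Libraries of the 2 treatments separated without overlap for some genes that were not called. At 4 h all 3 thrombin libraries lay above all 3 controls for SERPINH1, SYVN1 and SEC61A1, and below them for HSPA5, MANF, PDIA6, XBP1, HERPUD1 and SEC61B. At 24 h HSPA5, HYOU1, PDIA6, XBP1, SEC61A1 and SEC23A lay above and EIF2AK3 and SYVN1 below. At 48 h only SYVN1 of the 33 was separated, with thrombin above. The counts are 9, 8 and 1 of 33, and the groups did not overlap for 25.8%, 34.1% and 14.2% of all genes tested.

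**Figure D1:**
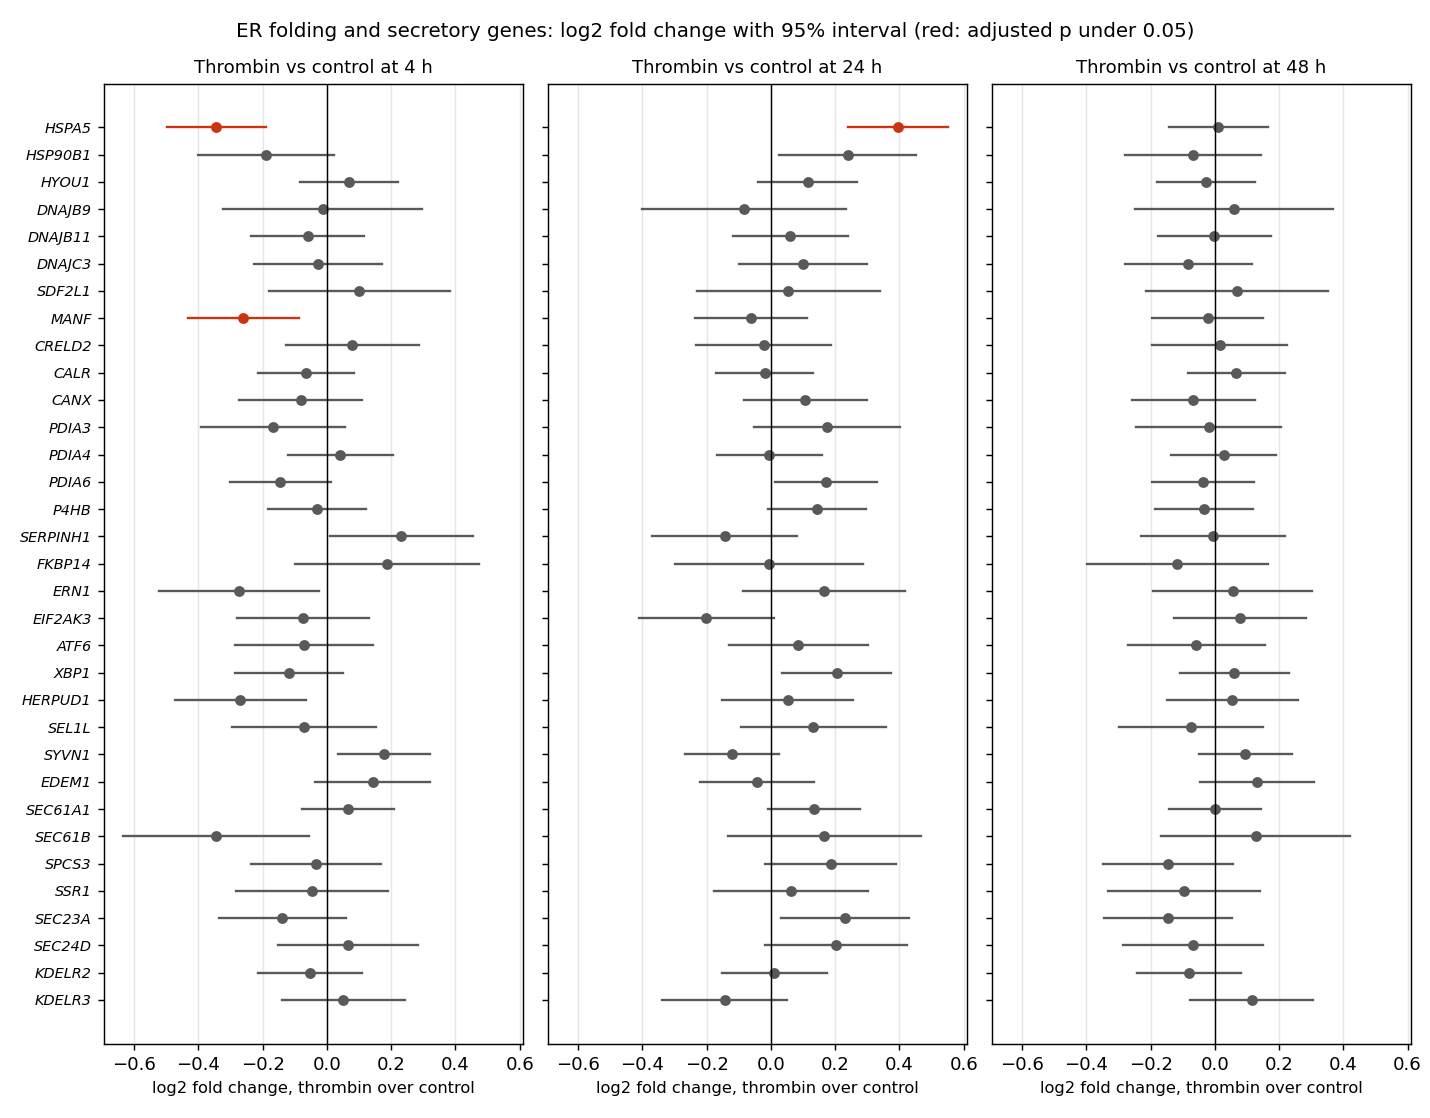
Log2 fold change of thrombin over control (horizontal axis) with its 95% interval for each of the 33 genes (vertical axis), 1 panel for each time and 3 libraries in each group. HSPA5 and MANF at 4 h and HSPA5 at 24 h, in red, are the called changes, and no gene is called at 48 h.

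The thrombin effect itself differed between 4 h and 24 h for 6 of the 33 genes, against 28.0% of all genes tested. The effect on HSPA5, HSP90B1, PDIA6, XBP1 and SEC23A was higher at 24 h than at 4 h, and that on SYVN1 was lower. Between 24 h and 48 h the effect on 1 of 33 genes differed, HSPA5, which was lower at 48 h, against 13.8% of all genes. Between 4 h and 48 h it was 0 of 33, against 0.632%. Leaving out 1 library at a time moved the count of genes with a higher effect at 24 h than at 4 h from 5 to between 1 (without thrombin 4 h library 14) and 7 (without control 48 h library 14), and the count with a lower effect from 1 to between 0 (without thrombin 4 h library 14) and 2 (without thrombin 24 h library 13). With total counts in place of TMM, 1 gene had a higher effect at 24 h than at 4 h (HSPA5) and 3 a lower one (SYVN1, SERPINH1 and EDEM1). In some of the other settings ERN1, SEC61B and PDIA3 gained a call of a higher effect at 24 h than at 4 h. SERPINH1 gained one of a lower effect there.

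HSPA5 is the main chaperone of the ER lumen and holds the stress sensors inactive. The gene lies at chr9:125234853-125241343 on the minus strand of GRCh38.p14. At 4 h it measured 400.0, 385 and 420.5 CPM in the control libraries and 333, 321 and 296 CPM in the thrombin libraries. The 3 thrombin libraries were all below the lowest control. At 24 h the levels were 320.0, 339 and 343 CPM in control and 426, 428 and 465 CPM in thrombin, and every thrombin library was above the highest control. At 48 h they were 367, 361 and 366 CPM and 347, 357 and 397 CPM, and the groups overlapped. The group means ± SD (n = 3) at 4 h were 401.8 ± 17.8 and 316.6 ± 18.8 CPM, a log2 fold change of -0.34 ± 0.07 (SE) with adjusted p = 0.00358 by edgeR. At 24 h they were 334.0 ± 12.2 and 439.3 ± 21.8 CPM, a log2 fold change of 0.40 ± 0.07 and an adjusted p of 0.000462. At 48 h the log2 fold change was 0.01 ± 0.07, with a 95% interval from -0.14 to 0.16.

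Across the 6 groups HSPA5 was lowest in thrombin 4 h, followed by control 24 h, control 48 h (364.4 ± 3.41 CPM), thrombin 48 h (367.1 ± 26.8 CPM), control 4 h and thrombin 24 h. The neighbours in this order that were compared were not distinguished by edgeR, and thrombin 48 h was not compared with control 4 h. Thrombin 4 h and control 24 h differed by a log2 value of -0.08 ± 0.07, thrombin and control at 48 h by 0.01 ± 0.07, and thrombin 24 h and control 4 h by 0.13 ± 0.07. Control 48 h exceeded control 24 h by 0.13 ± 0.07, also not called (adjusted p = 0.319). The difference of the thrombin effects between 24 h and 4 h was 0.74 ± 0.11 on the log2 scale with adjusted p = 9.68e-06 by edgeR. All 3 HSPA5 calls, at 4 h, at 24 h and for that difference, held under all 26 alternative settings, in which the difference ran from 0.60 to 0.77 and its adjusted p from 1.188e-11 to 0.0001323. The fall of the effect from 24 h to 48 h, -0.39 ± 0.11 with adjusted p = 0.0153 by edgeR, was not called without thrombin 48 h library 12 (-0.35, adjusted p = 0.0514) and in 2 of the other settings, and its adjusted p over all settings ran from 0.001658 to 0.0788.

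Many chaperone genes of the ER carry the ER stress response element, ERSE, which ATF6 binds together with the factor NF-Y. Its letters are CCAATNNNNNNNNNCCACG, searched on both strands. It is shown here because 4 of the 6 genes whose thrombin effect differed between 4 h and 24 h hold it near their start. The window is RefSeq's 250 bases before to 50 after each gene start on GRCh38.p14, which was at hand for 29 of the 33 genes (not PDIA3, FKBP14, SEC24D and KDELR2). ERSE was in the windows of 7 of these 29 genes and of 25 of all 27305 genes with a window (0.0916%), these 7 included. Counted by window it was in 27 of 35116 (0.0769%). Chaperone genes of the ER are known to carry the element, so its larger share among the 29 was given in advance and is no result. The 250 bases before the start of HSPA5, chr9:125241344-125241593 read 5′ to 3′ on the minus strand, hold 1 exact copy, given in capitals.
HSPA5 promoter: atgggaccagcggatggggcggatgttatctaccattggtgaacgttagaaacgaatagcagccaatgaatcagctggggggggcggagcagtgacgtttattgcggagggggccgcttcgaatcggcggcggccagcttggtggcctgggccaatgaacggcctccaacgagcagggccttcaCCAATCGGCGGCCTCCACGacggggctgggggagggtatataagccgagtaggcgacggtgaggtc
The 8 copies of the element in the 7 genes follow, each read 5′ to 3′ in the direction of the motif, with the fixed letters in capitals and the variable middle in lower case.
HSPA5, chr9:125241391-125241409: CCAATcggcggcctCCACG
HSP90B1, chr12:103930216-103930234: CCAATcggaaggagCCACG
HSP90B1, chr12:103930321-103930339: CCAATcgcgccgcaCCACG
PDIA6, chr2:10812853-10812871: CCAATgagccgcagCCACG
XBP1, chr22:28800603-28800621: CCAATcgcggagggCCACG
CRELD2, chr22:49918554-49918572: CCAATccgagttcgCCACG
CALR, chr19:12938384-12938402: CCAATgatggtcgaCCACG
CANX, chr5:179698778-179698796: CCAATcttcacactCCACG
The copies differ from one another in the variable middle. HSPA5, HSP90B1, PDIA6 and XBP1 had a called difference of effects between 4 h and 24 h, while CRELD2, CALR and CANX did not. SYVN1 and SEC23A had a called difference and no ERSE in their windows. The element was chosen after these calls were known, so the split is a description with no test. The related element ERSE-II (ATTGGNCCACG, both strands) was in the windows of HYOU1, with 2 copies, SDF2L1 and HERPUD1, and in 19 of all windows (0.0541%). The core of the unfolded protein response element (TGACGTGG, both strands) was in those of HYOU1, where it overlaps an ERSE-II copy, SEC23A and KDELR3, and in 256 of all windows (0.729%). A match is a description of the letters, and factor binding was not measured.

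HSP90B1 (GRP94), the HSP90 chaperone of the ER lumen at chr12:103930410-103947926, measured 132, 117 and 121 CPM in control and 121, 107 and 96.0 CPM in thrombin at 4 h. The 24 h levels were 97.4, 108 and 116 CPM and 123, 111 and 144 CPM. The 2 groups overlapped at both times, with the lowest value of all in thrombin 4 h library 14 and the highest in thrombin 24 h library 14. At 48 h the levels were 122, 123 and 135 CPM in control and 106, 122 and 133 CPM in thrombin. Neither single time was called, with log2 fold changes of -0.19 ± 0.10 at 4 h and 0.24 ± 0.10 at 24 h, though without thrombin 24 h library 13 the 24 h value was 0.32 and called (adjusted p = 0.044 by edgeR). Their difference, 0.43 ± 0.15, had adjusted p = 0.0287 by edgeR. That call was lost without control 4 h library 12, thrombin 4 h library 13 or 14, control 24 h library 12 or 13, or thrombin 24 h library 14 (values of 0.32 to 0.44, adjusted p from 0.0513 to 0.125). The pseudogene HSP90B2P is listed with 2.17 times the counts of HSP90B1 over all libraries, so how the counting divided reads between the copies bears on the level. With both counts summed, the difference was 0.33 ± 0.13 and not called (adjusted p = 0.0549), and HSP90B2P alone was not called either. With total counts the HSP90B1 difference was 0.29 and not called (adjusted p = 0.1611 by edgeR). Its adjusted p over the 26 settings ran from 0.009001 to 0.1611.

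The other lumenal chaperones and cofactors were not called between thrombin and control at 24 h. HYOU1 (GRP170), an exchange factor for HSPA5, measured 149, 152 and 155 CPM in control and 160.4, 153 and 166 CPM in thrombin at 4 h. At 24 h its levels were 161, 143 and 145 CPM and 162, 161 and 164 CPM, the thrombin libraries lying just above the controls. At 48 h it had 174, 155 and 149.6 CPM and 158, 152 and 159 CPM. DNAJB9 (ERdj4), a J-domain partner of HSPA5 and a standard readout of the IRE1 branch, showed no shift between the groups. Its levels at 4 h were 13.6, 13.7 and 12.0 CPM in control and 15.1, 12.8 and 11.1 CPM in thrombin. At 24 h they were 13.6, 13.1 and 15.4 CPM and 16.2, 10.1 and 13.4 CPM, thrombin holding both the highest and the lowest library. At 48 h DNAJB9 measured 14.0, 12.9 and 16.8 CPM and 14.1, 13.7 and 17.8 CPM. Its intervals, -0.40 to 0.23 on the log2 scale at 24 h, were among the wider ones.

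DNAJC3 (p58IPK), a J-domain protein of the lumen, measured 46.6, 54.6 and 50.6 CPM in control and 55.1, 46.4 and 47.6 CPM in thrombin at 4 h. Its 24 h levels were 46.6, 55.6 and 57.1 CPM and 58.8, 55.0 and 57.1 CPM, and its 48 h levels 61.0, 64.0 and 55.4 CPM and 51.5, 59.2 and 59.7 CPM. The treatments overlapped at each time. SDF2L1, a cofactor that extends the HSPA5 cycle, measured 63.2, 53.7 and 49.3 CPM in control and 49.6, 62.8 and 66.2 CPM in thrombin at 4 h. Its levels at 24 h were 61.3, 59.5 and 46.3 CPM and 47.6, 63.8 and 61.9 CPM, and at 48 h 48.2, 55.3 and 67.9 CPM and 64.0, 58.4 and 57.4 CPM. Its libraries spread widely within groups, so the 24 h interval ran from -0.23 to 0.34 on the log2 scale. The 4 h log2 fold change was 0.10, and without all libraries numbered 12 it was 0.32 and called higher (adjusted p = 0.0327 by edgeR).

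MANF, a stress-induced protein that binds HSPA5, is given here because it was called at 4 h, a choice made after its values were seen. It lies at chr3:51385291-51389397. At 4 h it measured 69.9, 63.3 and 62.8 CPM in control and 56.5, 57.8 and 49.4 CPM in thrombin, and the thrombin libraries were all below the controls. The log2 fold change was -0.26 ± 0.08 with adjusted p = 0.0428 by edgeR. The call was kept in 11 of 26 settings and lost without control 4 h library 12, 13 or 14, thrombin 4 h library 13 or 14, control 24 h library 12 or 13, control 48 h library 12 or 13, or thrombin 48 h library 13 (adjusted p from 0.0525 to 0.223). Total counts, no low-count filter, the compared libraries alone, a replicate block and leaving out all libraries numbered 12 also lost the call. Over all 26 settings its adjusted p ran from 0.02699 to 0.2229. At 24 h MANF had 58.9, 56.6 and 62.2 CPM and 54.7, 61.6 and 53.9 CPM, with overlapping groups. At 48 h it measured 58.1, 58.5 and 61.9 CPM and 57.9, 57.0 and 61.1 CPM. Its log2 fold change was -0.06 ± 0.08 at 24 h and -0.02 ± 0.08 at 48 h. The difference of the effects between 24 h and 4 h, 0.20 ± 0.12, was not called. DNAJB11 (ERdj3) had log2 fold changes from -0.06 to 0.06 over the 3 times, and CRELD2, a stress-induced disulfide isomerase-like protein, from -0.02 to 0.08, with every interval spanning 0.

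**Figure D2:**
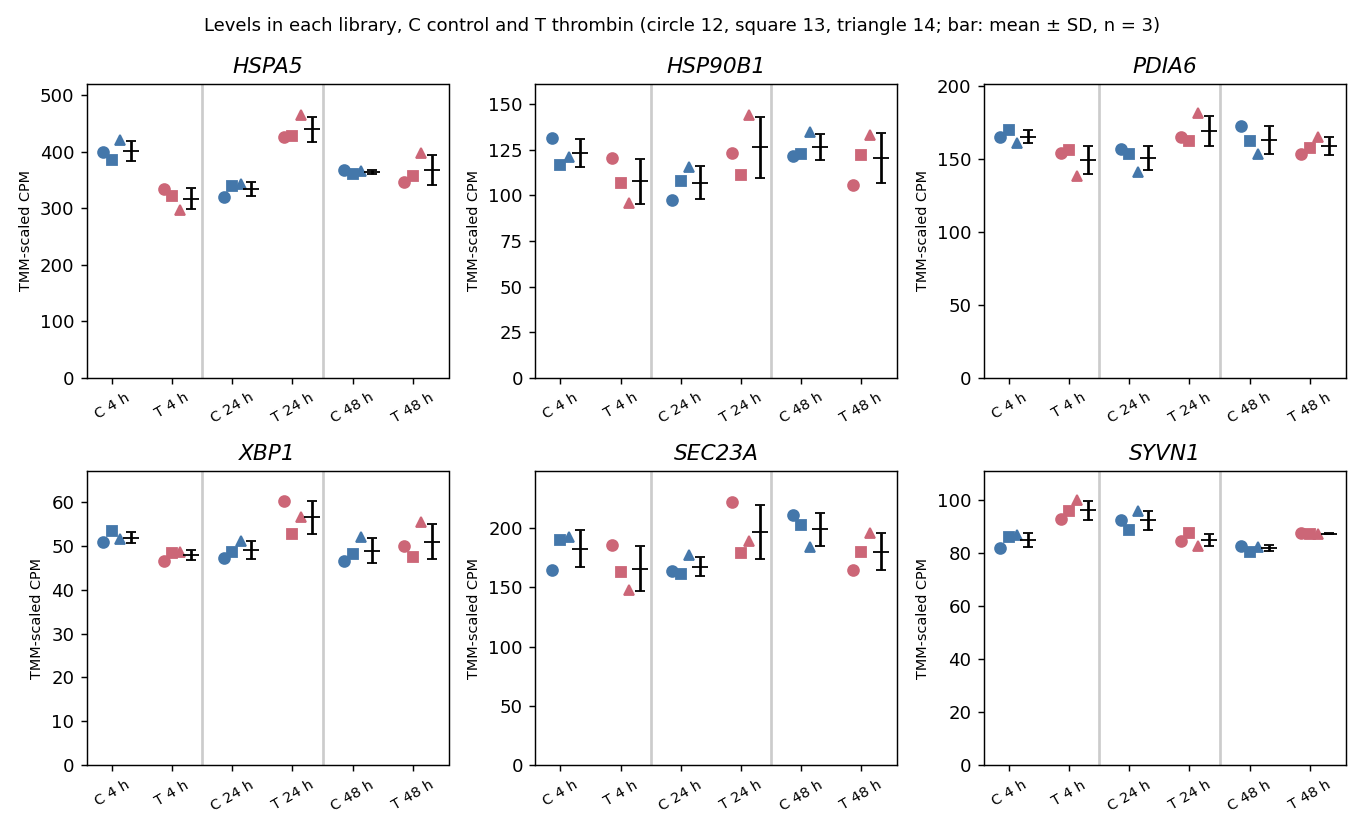
TMM-scaled CPM (vertical axis, from 0) in each of the 18 libraries by group (horizontal axis) for the 6 genes whose thrombin effect differed between 4 h and 24 h, with the mean ± SD of 3 libraries as bars. HSPA5 is below control at 4 h and above it at 24 h without overlap, while SYVN1 is above control at 4 h and below it at 24 h.

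The lectin chaperones, which hold glycoproteins during folding, were not called at any time with all libraries in the fit. CALR, the soluble one, measured 849, 849 and 808 CPM in control and 775, 801 and 821 CPM in thrombin at 4 h. By 24 h it measured 934, 897 and 826 CPM and 884, 929 and 809 CPM, and at 48 h 827, 791 and 818 CPM and 881, 853 and 818 CPM. Groups overlapped throughout and the 24 h interval, -0.17 to 0.13 on the log2 scale, was narrow. CANX, the membrane-bound one, measured 680.3, 799 and 796 CPM in control and 794, 690.4 and 666 CPM in thrombin at 4 h. Its 24 h levels were 731, 750.2 and 837 CPM and 884, 762 and 852 CPM, and its 48 h levels 965, 891 and 813 CPM and 770.0, 862 and 916 CPM. The CANX interval at 24 h ran from -0.08 to 0.30. At 4 h its log2 fold change was -0.08, and without all libraries numbered 12 it was -0.23 and called lower (adjusted p = 0.0476 by edgeR).

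Among the protein disulfide isomerases, which form and shuffle disulfide bonds, none was called between thrombin and control. PDIA6 lies at chr2:10783391-10837712 and measured 165, 169.6 and 161 CPM in control and 154, 156 and 139 CPM in thrombin at 4 h. The libraries of 24 h held 157, 154 and 141 CPM and 165, 162 and 181 CPM. The thrombin libraries lay below all controls at 4 h and above them all at 24 h. At 48 h the levels were 173, 162 and 154 CPM and 153, 158 and 165 CPM, with overlap. The log2 fold changes were -0.14 ± 0.08 and 0.17 ± 0.08 at 4 h and 24 h, and their difference of 0.32 ± 0.11 had adjusted p = 0.0309 by edgeR. It was not called without control 4 h library 13, thrombin 4 h library 14, control 24 h library 14 or thrombin 24 h library 14 (0.26 to 0.30, adjusted p from 0.0693 to 0.105), nor with total counts, where it was 0.17 (adjusted p = 0.2331). Without the low-count filter the difference was 0.32 and not called (adjusted p = 0.0705 by edgeR). Over the 26 settings the adjusted p ran from 0.01717 to 0.2331. Of the PDIA6 exon bases, 25.2% overlap exons of ATP6V1C2, and the strand setting of the counting is not known.

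PDIA3 (ERp57), the isomerase that works with the lectin chaperones, measured 104, 92.7 and 80.1 CPM in control and 85.4, 82.5 and 78.6 CPM in thrombin at 4 h. At the 24 h point it had 79.7, 82.7 and 71.1 CPM and 74.5, 85.3 and 103 CPM, and at 48 h 79.5, 79.3 and 95.1 CPM and 76.9, 85.0 and 88.5 CPM. The highest library of 24 h was thrombin 14 and the lowest control 14. Its pseudogene PDIA3P1 is listed with 4.15 times its counts, and with both summed the 24 h log2 fold change was 0.11 ± 0.08, beside 0.17 ± 0.11 for PDIA3 alone. PDIA4 (ERp72) had 255, 243 and 238 CPM in control and 231, 265 and 262 CPM in thrombin at 4 h. Its 24 h levels were 275, 259 and 233 CPM and 246, 266 and 252 CPM, and its 48 h levels 242, 244 and 247 CPM and 269.9, 241 and 235 CPM. PDIA4 varied least of the 33 genes across groups, with its highest group mean 1.05 times its lowest.

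P4HB encodes the abundant isomerase PDI, which is also the beta subunit of collagen prolyl 4-hydroxylase. It measured 1339, 1358 and 1337 CPM in control and 1181, 1372 and 1396 CPM in thrombin at 4 h. At 24 h the levels were 1266, 1198 and 1199 CPM and 1263, 1420.5 and 1365 CPM, and at 48 h 1133, 1167 and 1170.1 CPM and 1163, 1133 and 1093 CPM. Thrombin library 12 was the lowest of the 4 h libraries and overlap was present at each time. The 24 h log2 fold change was 0.14 ± 0.07, with an interval from -0.01 to 0.30. Between the thrombin libraries of 24 h and 48 h P4HB fell by 0.26 on the log2 scale (SE 0.07, adjusted p = 0.0283 by edgeR).

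Both collagen folding factors stayed uncalled. SERPINH1 (HSP47), the chaperone specific to procollagen, measured 152, 159 and 135 CPM in control and 168, 167 and 188 CPM in thrombin at 4 h, without overlap. The 24 h levels were 181, 166 and 131 CPM and 141, 158 and 134 CPM, and at 48 h 157, 159 and 151 CPM and 179, 156 and 131 CPM. Its log2 fold changes were 0.23 ± 0.11 at 4 h (adjusted p = 0.172 by edgeR) and -0.14 ± 0.11 at 24 h. FKBP14, a prolyl isomerase that acts on collagen, had 11.1, 10.6 and 9.74 CPM in control and 14.3, 10.6 and 11.0 CPM in thrombin at 4 h. Its levels at 24 h were 9.49, 11.1 and 13.7 CPM and 10.7, 11.4 and 12.1 CPM, and at 48 h 13.2, 13.5 and 13.3 CPM and 10.4, 12.9 and 13.7 CPM. FKBP14 had the fewest reads of the 33 genes, and its 24 h interval ran from -0.30 to 0.29.

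The 3 sensors of the unfolded protein response and XBP1 were measured as transcripts only. Their activity depends on oligomerisation, cleavage or splicing, which gene counts do not report, and the spliced form of XBP1 is not separated from the unspliced one. ERN1 (IRE1), the kinase and nuclease that splices XBP1, measured 21.1, 26.5 and 28.4 CPM in control and 22.3, 19.9 and 20.5 CPM in thrombin at 4 h. By 24 h it measured 22.0, 22.4 and 24.9 CPM and 24.5, 25.8 and 27.3 CPM, and at 48 h 27.0, 27.4 and 20.6 CPM and 23.9, 24.5 and 29.8 CPM. Control library 12 was the one 4 h control within the thrombin range. The 4 h log2 fold change was -0.27 ± 0.12 (adjusted p = 0.144 by edgeR). It became a call of -0.39 (adjusted p = 0.0377) without control 4 h library 12 and one of -0.44 (adjusted p = 0.0151) without all libraries numbered 12.

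EIF2AK3 (PERK), the kinase that slows translation, measured 23.5, 24.0 and 21.6 CPM in control and 24.5, 21.9 and 19.2 CPM in thrombin at 4 h. The libraries of 24 h held 23.7, 24.6 and 25.8 CPM and 20.7, 20.3 and 23.4 CPM, the thrombin libraries all below the controls. At 48 h it had 23.9, 23.1 and 24.6 CPM and 23.1, 26.3 and 26.2 CPM. The 24 h log2 fold change was -0.20 ± 0.10 (adjusted p = 0.185 by edgeR), and with total counts -0.31 (adjusted p = 0.0363). ATF6, the membrane-bound factor released by cleavage, measured 43.7, 53.1 and 51.5 CPM in control and 53.9, 46.0 and 41.3 CPM in thrombin at 4 h. Its 24 h levels were 45.6, 48.7 and 50.6 CPM and 56.3, 47.3 and 50.3 CPM, and its 48 h levels 58.1, 62.3 and 50.0 CPM and 51.6, 55.4 and 56.8 CPM. ATF6 groups overlapped at each time.

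XBP1, the transcription factor made by IRE1 splicing, lies at chr22:28794560-28800569. It measured 50.8, 53.3 and 51.6 CPM in control and 46.5, 48.4 and 48.5 CPM in thrombin at 4 h. At 24 h the levels were 47.2, 48.5 and 51.2 CPM and 60.2, 52.7 and 56.5 CPM. The thrombin libraries were all below the controls at 4 h and all above them at 24 h. At 48 h they were 46.5, 48.0 and 52.0 CPM and 50.0, 47.5 and 55.5 CPM. Neither time was called (-0.12 ± 0.08 and 0.20 ± 0.08), while the difference of 0.32 ± 0.12 had adjusted p = 0.0399 by edgeR. It was called in 12 of 26 settings, with adjusted p from 0.02556 to 0.276, and lost without any 1 of 11 libraries (control 4 h 13 and 14, thrombin 4 h 12, 13 and 14, control 24 h 12 and 13, thrombin 24 h 12 and 14, control 48 h 12 and thrombin 48 h 13), where the value was 0.28 to 0.33. With total counts the difference was 0.18 (adjusted p = 0.276), without the libraries numbered 12 it was 0.25 (adjusted p = 0.1836), and neither was called. Without the low-count filter it was 0.32 and also not called (adjusted p = 0.113 by edgeR). Between the thrombin libraries XBP1 was higher at 24 h than at 4 h by 0.24 ± 0.08 (adjusted p = 0.0489 by edgeR).

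ER-associated degradation returns misfolded proteins to the cytosol. SYVN1 (HRD1), its ubiquitin ligase, lies at chr11:65127279-65134519 and measured 82.1, 86.1 and 86.8 CPM in control and 92.8, 95.7 and 99.9 CPM in thrombin at 4 h. At 24 h the levels were 92.4, 88.9 and 96.0 CPM and 84.7, 87.5 and 82.7 CPM. Every thrombin library was above every control at 4 h and below them at 24 h. At 48 h SYVN1 had 82.7, 80.5 and 82.3 CPM and 87.5, 87.4 and 87.4 CPM, thrombin above control. The log2 fold changes of 0.18 ± 0.07, -0.12 ± 0.07 and 0.10 ± 0.07 were not called. The difference between 24 h and 4 h, -0.30 ± 0.10, had adjusted p = 0.026 by edgeR, opposite in sign to the other 5 called differences. It was lost without thrombin 4 h library 14, control 24 h library 12 or 14, or thrombin 24 h library 14 (-0.30 to -0.27, adjusted p from 0.0514 to 0.069). Other settings that lost it were no low-count filter (edgeR adjusted p = 0.1183), only the compared libraries (0.068) and no libraries numbered 12 (0.0586). Its adjusted p over 26 settings ran from 0.001276 to 0.1183. With total counts SYVN1 was called higher at 4 h (0.21, adjusted p = 0.0475) and lower at 24 h (-0.23, adjusted p = 0.0188), and by DESeq2 it was called at 4 h (0.18, adjusted p = 0.04).

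HERPUD1, a stress-induced organiser of the degradation complex, measured 34.2, 35.1 and 33.9 CPM in control and 28.0, 30.6 and 27.0 CPM in thrombin at 4 h, thrombin below control in all libraries. At the 24 h point it had 32.1, 35.4 and 33.3 CPM and 36.3, 37.0 and 31.4 CPM, and at 48 h 31.3, 30.6 and 29.5 CPM and 27.0, 31.5 and 36.4 CPM. The 4 h log2 fold change of -0.27 ± 0.10 missed the threshold (adjusted p = 0.0763 by edgeR). SEL1L, the partner of SYVN1, measured 76.7, 97.8 and 105 CPM in control and 99.9, 80.0 and 86.1 CPM in thrombin at 4 h. The 24 h levels were 89.2, 95.8 and 97.1 CPM and 109, 93.3 and 107 CPM, and at 48 h 113, 107 and 88.9 CPM and 91.3, 97.9 and 105 CPM. SEL1L groups overlapped at all 3 times. Its 4 h log2 fold change was -0.07, and without all libraries numbered 12 it was -0.29 and called lower (adjusted p = 0.0293 by edgeR).

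EDEM1, a lectin that delivers misfolded glycoproteins for degradation, was called between control times and not between treatments. It measured 72.4, 91.6 and 91.5 CPM in control and 97.1, 96.5 and 88.3 CPM in thrombin at 4 h. Its levels at 24 h were 102, 105 and 104 CPM and 102, 96.3 and 103 CPM, and at 48 h 111, 103 and 100.2 CPM and 109, 113 and 122 CPM. All controls of 24 h and 48 h were above those of 4 h, by 0.28 ± 0.09 (adjusted p = 0.0274) and 0.30 ± 0.09 (adjusted p = 0.0337) by edgeR. Control 4 h library 12 was the lowest of all libraries, and these calls were not rerun under the alternative settings. Thrombin against control was not called at any time, with log2 fold changes from -0.04 to 0.14.

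The genes of translocation and signal peptide removal were not called between thrombin and control. SEC61A1, the pore subunit of the channel, measured 348, 359.9 and 361 CPM in control and 367, 376 and 376 CPM in thrombin at 4 h. By 24 h it measured 346, 342 and 385 CPM and 394, 395 and 389 CPM, and at 48 h 397, 392 and 403 CPM and 375, 406 and 412 CPM. Thrombin libraries lay above the controls at 4 h and at 24 h, by 0.07 ± 0.07 and 0.14 ± 0.07 on the log2 scale. SEC61B, a small channel subunit, measured 18.5, 14.7 and 14.7 CPM in control and 12.0, 14.5 and 11.2 CPM in thrombin at 4 h. The libraries of 24 h held 12.3, 12.7 and 11.5 CPM and 12.5, 13.9 and 14.4 CPM, and at 48 h 9.93, 12.8 and 15.0 CPM and 11.9, 13.9 and 15.4 CPM. Its 4 h log2 fold change, -0.34 ± 0.14, equalled that of HSPA5 in size but not in precision (adjusted p = 0.111 by edgeR).

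SPCS3, a subunit of signal peptidase, measured 64.2, 72.0 and 67.5 CPM in control and 75.0, 65.2 and 58.6 CPM in thrombin at 4 h. At the 24 h point it had 58.3, 64.0 and 68.8 CPM and 81.4, 65.0 and 71.1 CPM, and at 48 h 87.3, 84.9 and 76.4 CPM and 70.7, 75.6 and 78.5 CPM. The 48 h controls were all above the 24 h controls, by 0.38 ± 0.10 (adjusted p = 0.0229 by edgeR). SSR1, part of the translocon-associated complex, measured 109, 118 and 128 CPM in control and 133, 107 and 104 CPM in thrombin at 4 h. The 24 h levels were 106, 109 and 141 CPM and 132, 112 and 127 CPM, and at 48 h 155, 138 and 136 CPM and 116, 134 and 152 CPM. SSR1 groups overlapped at all 3 times.

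In the COPII coat, SEC23A, an inner coat subunit needed for collagen export, lies at chr14:39031919-39103235. It measured 164, 190.1 and 193 CPM in control and 186, 163 and 148 CPM in thrombin at 4 h, with overlap. Its levels at 24 h were 164, 162 and 177 CPM and 222, 179 and 189 CPM, all thrombin libraries above the controls. At 48 h the levels were 211, 202 and 184 CPM and 165, 179.7 and 196 CPM. The log2 fold changes were -0.14 ± 0.10 at 4 h and 0.23 ± 0.10 at 24 h, neither called, and their difference of 0.37 ± 0.14 had adjusted p = 0.0446 by edgeR. Without all libraries numbered 12 the 4 h value was -0.30 and was called (adjusted p = 0.0125). The call of the difference between 24 h and 4 h was kept in 13 of 26 settings, with adjusted p from 0.009866 to 0.2206. With total counts that difference was 0.23 (adjusted p = 0.2206 by edgeR) and with a replicate block 0.37 (adjusted p = 0.0533), neither called. The call of the difference was also lost without any 1 of 11 libraries (control 4 h 13 and 14, thrombin 4 h 13 and 14, control 24 h 12 and 13, thrombin 24 h 12 and 14, control 48 h 12 and 13 and thrombin 48 h 13), where the value was 0.27 to 0.39.

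SEC24D, a cargo-binding coat subunit, measured 55.9, 68.7 and 70.1 CPM in control and 71.6, 63.0 and 69.2 CPM in thrombin at 4 h. By 24 h it measured 56.2, 56.6 and 68.4 CPM and 73.4, 70.0 and 65.2 CPM, and at 48 h 80.1, 74.4 and 65.1 CPM and 62.4, 68.4 and 79.1 CPM. Its groups overlapped at each time, and the 24 h log2 fold change was 0.20 ± 0.11. KDELR2 and KDELR3 are receptors that return chaperones from the Golgi. KDELR2 measured 211, 212 and 213 CPM in control and 214, 216 and 184 CPM in thrombin at 4 h, 189.9, 198 and 220.3 and 211, 202 and 200.2 CPM at 24 h, and 224, 224 and 226 and 199, 208 and 230.4 CPM at 48 h. KDELR3 had 44.7, 44.6 and 40.6 CPM in control and 46.6, 46.6 and 41.4 CPM in thrombin at 4 h, 45.0, 44.1 and 51.6 and 45.4, 43.2 and 39.0 CPM at 24 h, and 42.1, 44.5 and 42.9 and 45.1, 42.8 and 52.6 CPM at 48 h. Neither receptor was called, and the log2 fold changes at 24 h were 0.01 ± 0.08 for KDELR2 and -0.14 ± 0.09 for KDELR3.

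**Figure D3:**
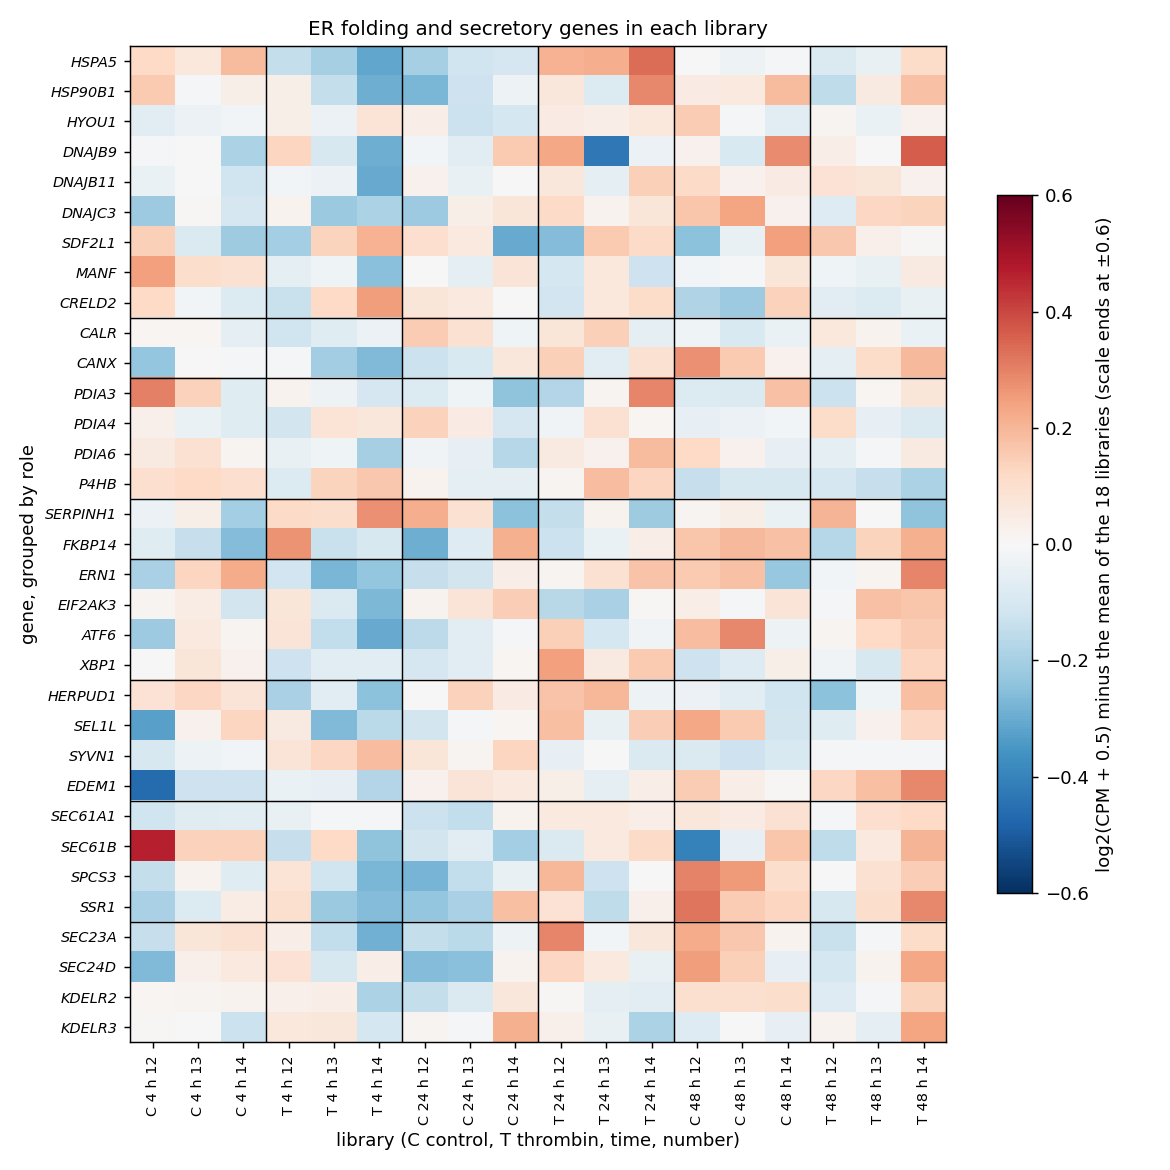
Log2(CPM + 0.5) of each of the 33 genes (rows, grouped by role) in each library (columns) minus the gene's mean over the 18 libraries, coloured from -0.6 to 0.6. The HSPA5 row is blue in the thrombin 4 h and control 24 h columns and red in the control 4 h and thrombin 24 h columns. Values run from -0.460 to 0.464.

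Levels also differed little across the 6 groups, which differ in treatment as well as in time. Over the 6 groups the highest group mean was a median of 1.19 times the lowest for the 33 genes, from 1.05 (PDIA4) to 1.39 (HSPA5). For the 9851 tested genes at least as abundant as the least abundant of the 33, the median was 1.22. Among the controls, EDEM1 was higher and HSPA5 lower at 24 h than at 4 h (HSPA5 -0.27 ± 0.07, adjusted p = 0.0164 by edgeR), 2 of 33 against 15.2% of all genes. SPCS3 alone was called between control 24 h and 48 h, 1 of 33 against 6.12%, and EDEM1 alone between control 4 h and 48 h, 1 of 33 against 7.93%. Among the thrombin libraries HSPA5 (0.47 ± 0.07, adjusted p = 7.23e-05 by edgeR) and XBP1 were higher at 24 h than at 4 h, 2 of 33 against 15.1%. HSPA5 (-0.26 ± 0.07, adjusted p = 0.0272 by edgeR) and P4HB were lower at 48 h than at 24 h, 2 of 33 against 9.72%. Between thrombin 4 h and 48 h it was 0 of 33 against 1.11%, and between thrombin 24 h and control 4 h 0 of 33 against 3.34%. None of these comparisons between times was rerun under the alternative settings.

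Other genes of the ER and of ER-Golgi transport also had few calls. Of 102 tested genes in 4 lists (other chaperones, isomerases and oxidases; other degradation genes; other translocation and N-glycosylation genes; other ER-Golgi transport genes), 2 were higher and 2 lower at 4 h, 0 higher and 2 lower at 24 h, and none was called at 48 h. The called share was 3.92% at 4 h and 1.96% at 24 h, beside 11.8% and 17.6% of all genes. Their median log2 fold change was -0.03, 0.01 and -0.02. KDELR1, the third receptor of the KDELR family, was higher at 4 h (0.35 ± 0.08, adjusted p = 0.00825 by edgeR) and lower at 24 h (-0.30 ± 0.09, adjusted p = 0.0142). FKBP7, a prolyl isomerase of the lumen, was lower at 24 h by edgeR (-0.50 ± 0.16, adjusted p = 0.0296). The other 2 calls at 4 h in the direction of lower levels were RHBDD1 (-0.44 ± 0.12), a rhomboid protease, and DAD1 (-0.37 ± 0.10), a subunit of the oligosaccharyltransferase, and the other higher one was MOGS (0.30 ± 0.10), the first glucosidase of N-glycan trimming. These 3 fall outside the rule for named genes and were chosen after their values were seen.

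The next genes of these lists by adjusted p at 24 h were not called. In the degradation list these were NPLOC4 (0.19 ± 0.07) and VCP (0.19 ± 0.07), which extract proteins from the membrane, DERL3 (-0.55 ± 0.22) and DERL1 (-0.18 ± 0.08), with edgeR adjusted p from 0.0561 to 0.108. In the translocation and glycosylation list they were MAGT1 (-0.18 ± 0.07), TRAM2 (0.29 ± 0.12), SEC61G (0.41 ± 0.17) and SRPRB (0.17 ± 0.08). The chaperone list had TXNDC5 (0.28 ± 0.13), DNAJC1 (-0.21 ± 0.10) and CNPY2 (-0.18 ± 0.11) after FKBP7, and the transport list SEC13 (0.21 ± 0.10), COPB2 (0.19 ± 0.09) and BET1 (-0.24 ± 0.13) after KDELR1.

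The PERK and ATF4 arm of the stress response had 3 of 18 genes higher and 1 lower at 24 h, and 1 lower at 4 h, with medians of 0.12 and -0.01. The called share was 22.2% at 24 h and 5.56% at 4 h, beside 17.6% and 11.8% of all genes. STC2, a secreted glycoprotein, was lower at 4 h (-0.77 ± 0.20, adjusted p = 0.0192 by edgeR) and higher at 24 h (0.94 ± 0.20, adjusted p = 0.00353). ASNS, asparagine synthetase (0.99 ± 0.31), and CHAC1, a glutathione-degrading enzyme (0.68 ± 0.21), were higher at 24 h. DDIT3 (CHOP), the factor linked to stress-induced cell death, was lower at 24 h (-0.47 ± 0.12, adjusted p = 0.00969 by edgeR), so the called genes of this arm did not share 1 direction. The levels of ASNS were low, 1.33 ± 0.757 CPM in control and 2.64 ± 0.231 CPM in thrombin at 24 h. None of the 18 was called at 48 h. A further list of 11 tested genes held membrane-bound transcription factors (CREB3, CREB3L1, CREB3L2 and ATF6B), proteases that release such factors (MBTPS1 and MBTPS2), the cytosolic adaptor TRAF2 and nuclear partners of ATF6 (NFYA, NFYB, NFYC and YY1). In it MBTPS1 (0.23 ± 0.07), the protease that cleaves ATF6, and YY1 (0.28 ± 0.07), a cofactor of ATF6, were higher at 4 h, 18.2% against 11.8% of all genes, and none was called at 24 h or 48 h. MBTPS2 (-0.21 ± 0.11) and ATF6B (-0.17 ± 0.10) were not called at 24 h.

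The list of matrix proteins and their enzymes, the main cargo of this pathway in stellate cells, had more calls. Of 29 tested genes, 1 was higher and 7 lower at 4 h, with a median of -0.25, and 20 were higher and 4 lower at 24 h, with a median of 0.52. The called shares were 27.6% and 82.8%, beside 11.8% and 17.6% of all genes. At 48 h none was called. LOXL2, a collagen crosslinking oxidase, went from 649 ± 70.4 CPM in control to 341 ± 25.2 CPM in thrombin at 4 h, and from 313 ± 14.1 to 778 ± 24.1 CPM at 24 h. Its log2 fold change at 24 h was 1.31 ± 0.10, beside 1.40 ± 0.12 for THBS1, 0.92 ± 0.13 for THBS2 and 0.64 ± 0.10 for COL5A1. The list includes enzymes that act inside the ER, of which PLOD2 (0.59 ± 0.11) and P4HA2 (0.31 ± 0.07) were higher and P4HA1 (-0.45 ± 0.12) lower at 24 h, 3 enzymes named after their values were seen. Of 12 cytosolic heat shock genes, 0 were higher and 2 lower at 24 h, a share of 16.7% beside 17.6% of all genes, the near-identical pair HSPA1A (-0.35 ± 0.08) and HSPA1B (-0.32 ± 0.08), whose reads may not be separable. HSPD1 (0.33 ± 0.12) and HSP90AB1 (0.20 ± 0.09) were not called. HSPA1A was also higher at 4 h (0.28 ± 0.08).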

How the data were processed

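Poly(A) RNA of 18 LX-2 libraries was counted by the authors, who deposited raw read counts per gene symbol (28278 symbols, 0 columns left unmatched to a library, 0 entries without a name). The submitters' processing notes name GRCh38 with Bowtie2 2.5.4, cutadapt 4.9, DESeq2 and SAMtools 1.21. The read counter, the annotation and any use of strand are, like the role of each tool, not given in the sources used here. Of the 33 genes, 20 overlap exons of another gene, and reads of near-identical copies may have been divided, so levels were not compared between genes.

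R 4.3.3 and edgeR 4.0.16 were used for the main tests. The filter filterByExpr (minimum count 10, minimum total 15) left 15353 genes, and libraries were scaled by TMM (factors 0.945 to 1.03). All 18 libraries entered 1 robust quasi-likelihood model with 6 group means (biological coefficient of variation 9.07%), and contrasts had two-sided tests, adjusted by Benjamini-Hochberg over all genes tested. CPM are TMM-scaled, and ± is the SD over 3 libraries for levels and the SE for log2 fold changes. Depth was 14431044 to 23270601 counts, with at least 140 reads for each of the 33 genes in each library.

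The members and lists were chosen with earlier results of these data known. Library values are given for up to 4 genes of each role with the smallest adjusted p at 24 h or 48 h, for the sensors and for genes with a called difference between times, and from each other list the 4 tested genes with the smallest adjusted p at 24 h are named. Alternatives were DESeq2 1.42.0, RLE factors, total counts, no filter, a fit of the compared libraries alone, a replicate block, each library left out in turn and all libraries numbered 12 left out. They were run for thrombin against control at each time and for the differences of effects, not for the other comparisons. After seeing the data, 2 were added: pseudogene counts summed with their parents, and a 48 h fit without the thrombin 4 h and control 24 h groups. Promoter sequences are from RefSeq on GRCh38.p14.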

Additional observations from a re-analysis of the deposited data

Results flagged for a closer look

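A difference between the thrombin effects at 4 h and 24 h was called for 6 of 33 genes, against 28.0% of all genes. Of these calls only that of HSPA5 was kept in all 26 alternative settings. The others were kept in 12 (XBP1) to 20 (PDIA6) of 26. On the log2 scale the effect at 24 h minus that at 4 h was 0.74 ± 0.11 for HSPA5 (edgeR adjusted p = 9.68e-06), 0.43 ± 0.15 for HSP90B1 (adjusted p = 0.0287), 0.32 ± 0.11 for PDIA6 (adjusted p = 0.0309), 0.32 ± 0.12 for XBP1 (adjusted p = 0.0399) and 0.37 ± 0.14 for SEC23A (adjusted p = 0.0446). For SYVN1 it was -0.30 ± 0.10 (adjusted p = 0.026). The HSPA5 effect at 48 h minus that at 24 h was -0.39 ± 0.11 (edgeR adjusted p = 0.0153). The first 6 rest on the groups labelled thrombin 4 h and control 24 h, whose libraries differed in 11 of 15353 genes. The HSPA5 difference between 48 h and 24 h also rests on the group labelled control 24 h.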

How the results depend on the processing

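Of 5181 alternative values of single genes, 5071 kept the call or its absence, 66 lost a call, 44 gained one and 0 reversed. These values cover 198 results, most of them not called in the main fit, where no call could be lost. All 66 losses fall on the few called results, which had 26 settings each. The number lost ran from 0 of 26 for HSPA5 at 4 h to 15 of 26 for MANF at 4 h. For the count of the 33 genes higher at 4 h (main 0), DESeq2, total counts and leaving out all libraries numbered 12 each gave 1. The count lower at 4 h (main 2) was 1 with total counts, without the low-count filter and with only the compared libraries, and 5 without the libraries numbered 12, where 3560 genes were called in place of 1813. At 24 h total counts gave 2 lower in place of 0, and turned the split of all called genes from 1389 higher and 1311 lower to 845 and 2537; at 4 h the split went from 965 and 848 to 1208 and 649. At 48 h, where 0 genes were called, DESeq2 gave 14, no filter 50, the compared libraries alone 2 and leaving out the libraries numbered 12 gave 5. For the effect at 24 h minus 4 h (main 5 higher, 1 lower), total counts gave 1 and 3, and the lower count was 0 with only the compared libraries and without the libraries numbered 12. For 48 h minus 24 h (main 0 higher, 1 lower), DESeq2, no filter and the compared libraries alone gave 2 lower, leaving out the libraries numbered 12 gave 0 lower, and total counts gave 1 higher and 0 lower. For 48 h minus 4 h (main 0 higher, 97 genes called), DESeq2 gave 1 higher and 236 genes, no filter 381 genes, and leaving out the libraries numbered 12 gave 2 higher and 1133 genes.

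With the number in the title as a replicate block, 1 of the 33 genes was lower at 4 h, 2 had a lower effect at 24 h than at 4 h, 1 gene was called at 48 h and 163 for 48 h minus 4 h. Within each time the numbers did not pair control with thrombin libraries. Over 9 such pairs the correlation of deviations ran from -0.142 to 0.0842, with 0 pairs over 0.1. Of the 9, 2 correlated best with their own number. Pairing by number across times was not examined.

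Leaving out each library in turn gave 0 to 0 of the 33 genes higher and 1 to 2 lower at 4 h (840 genes called without thrombin 4 h library 14 to 2397), 1 to 2 higher and 0 to 0 lower at 24 h (1731 genes without thrombin 24 h library 14 to 2950), and 0 higher and 0 lower at 48 h (0 to 4 genes). For the effect at 24 h minus 4 h it gave 1 to 7 higher, 0 to 2 lower and 3478 to 4710 genes, for 48 h minus 24 h 0 to 0 higher, 0 to 2 lower and 1465 to 2402 genes, and for 48 h minus 4 h 0 higher, 0 lower and 41 (without control 4 h library 13) to 290 genes (without control 4 h library 12). The cause of these moves was not tested. The precision is limited by 3 libraries in each group.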
